A study of Mus musculus with 12 samples.

Results

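The genes described here are 10 genes of MHC class II antigen presentation and of dendritic cells: the class II chain genes H2-Aa, H2-Ab1 and H2-Eb1, the peptide-loading genes H2-DMa, H2-DMb1 and Cd74, the transactivator Ciita, and the dendritic cell genes Flt3, Xcr1 and Cd209a. They were taken by symbol from a table of 18996 mouse genes, in which each of the 10 has 1 entry, and were followed in every mouse of 3 groups. The study examined the scar that forms after spinal surgery. The No operation group gave paraspinal soft tissue of mice without surgery. The SHAM group gave soft and scar tissue after paraspinal soft tissue was removed and the vertebral lamina was left in place. The Laminectomy group gave soft and scar tissue after the vertebral lamina was cut out. Tissue was taken at day 7 after surgery, and polyadenylated RNA was sequenced in 4 mice per group. The study's methods give BALB/c mice of both sexes aged 5 to 7 weeks, and name no genetic change for these groups. The sample labels carry no strain, age or sex. The study's figure legends give 3 mice per group without naming them, so all 4 deposited mice per group were used.

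MHC class II molecules are pairs of an alpha and a beta chain that carry peptides from taken-up proteins to the cell surface, where CD4 T cells read them. The invariant chain, encoded by Cd74, escorts new class II molecules and blocks their groove until proteases cut it and the H2-DM heterodimer exchanges its last fragment for peptide. Dendritic cells, macrophages and B cells carry most class II, the transactivator CIITA switches its genes on, and interferon gamma can bring it to other cells, fibroblasts included.

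Total counts per mouse ran from 16803002 to 18077873. Levels are CPM, the count scaled to the library size after the trimmed mean of M values (TMM) adjustment, and differences are log2 fold changes from edgeR with a standard error (SE), fitted over all 12 mice. A gene was called when its Benjamini-Hochberg adjusted p over all 14765 tested genes was below 0.05 and its log2 fold change was above 0.5 in size, the thresholds of the study. Of the 10 genes, 9 passed the filter on low counts, and Xcr1 did not and was not tested. SHAM and Laminectomy were each compared with the same 4 No operation mice, so these comparisons are not independent of each other, and Laminectomy against SHAM tests the difference between the surgical groups.

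Several libraries stood apart before any class II gene was considered. The 10 skeletal muscle genes, led in group means by Myh4 without operation and by Acta1 after surgery, summed to between 84378 and 119273 CPM in the No operation mice, between 2080 and 7765 in the SHAM mice and between 2554 and 11269 in the Laminectomy mice. The 10 fibroblast and scar genes, led by Col1a2, Col3a1 and Col1a1 in the means of these groups in turn, summed to between 9450 and 30300, between 63173 and 83563, and between 58049 and 73784 CPM. Muscle RNA was thus lower and scar RNA higher in every operated mouse than in any unoperated one. No operation 1 had the most Postn of its group, 2053 CPM against at most 330 in the others, and the most Col3a1, 9680 against at most 2180. No operation 2 held the B cell genes, whose sum was 68.1 CPM there and from 6.13 to 21.0 in the other No operation mice. SHAM 1 and SHAM 3 held epidermal keratins, with sums of 102 and 80.7 CPM over the Langerhans cell and epidermis genes, against at most 8.29 in the other mice. The most abundant of these genes was Krt10 in SHAM 1, at 50.6 CPM, and Krt14 in SHAM 3, at 37.1 CPM, where Krt10 was at 2.49 CPM. The part of these differences in the results below was not tested.

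At day 7 the class II genes were higher in SHAM scar than in unoperated tissue. The chain, loading and transactivator genes rose by 0.66 to 1.21 on the log2 scale, and the dendritic cell receptor gene Flt3 rose by 1.31 (SE 0.45), while Cd209a, at -0.09 (SE 0.28), was not called. In all, edgeR called 8 of the 9 tested genes higher, beside 25.7% of all genes tested (3799 of 14765), and 0 lower, beside 25.1% (3703). The median log2 fold change was 1.02 over the 9 genes and 0.00 over all genes tested. In bulk tissue, more cells of a type and more RNA per cell cannot be told apart. Without No operation 1, No operation 3, SHAM 1 or SHAM 4 the count was 7, Flt3 being the gene lost, and it was also 7 without SHAM 1 and SHAM 3 together, a choice made after seeing the data.

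In Laminectomy scar fewer of these genes were called against unoperated tissue. Ciita rose by 0.61 (SE 0.21) and H2-DMb1 by 0.53 (SE 0.18), Flt3 rose by 1.17 (SE 0.45), and Cd209a fell by 1.20 on the log2 scale (SE 0.29). H2-Aa, H2-Ab1, H2-Eb1, H2-DMa and Cd74 had log2 fold changes from 0.07 to 0.33 and were not called. By edgeR, 3 of the 9 genes were called higher, beside 24.2% of all genes tested (3577), and 1 lower, beside 24.4% (3605), shares of 9 genes too close to those of all genes to be a result about the set. The median was 0.31 over the 9 genes and 0.01 over all genes tested. The total of 4 called genes was 1 without No operation 3 and 1 without Laminectomy 4, and 2 without No operation 4. It was 3 without No operation 1, SHAM 3, Laminectomy 1, Laminectomy 2 or Laminectomy 3, and without SHAM 1 and SHAM 3 together. With library size alone in place of TMM the total was 7, with H2-Aa at 0.58, H2-Ab1 at 0.62 and H2-Eb1 at 0.65, a scaling that raised the median of all genes by 0.32 and called 5456 genes higher and 2347 lower.

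Set directly against SHAM, the Laminectomy mice had lower mean levels of all 7 class II chain, loading and transactivator genes, with log2 fold changes from -0.49 for H2-DMb1 to -0.76 for H2-Ab1, yet edgeR called 0 of the 9 genes, as it called 0% of all 14765 genes tested. At an unadjusted p below 0.05 edgeR had 2360 genes in either direction. At the adjusted p and fold thresholds for a call, limma-voom called 0 genes and DESeq2 called 696. Of the 9 genes, 8 were lower at an unadjusted p below 0.05 by edgeR, beside 9.03% of all genes (1333). DESeq2 called 6 lower, H2-Aa, H2-Ab1, H2-Eb1, H2-DMa, Cd74 and Cd209a, beside 2.24% of the 16008 genes it tested (359). A difference between the surgical groups was thus not established by edgeR at its adjusted threshold, while DESeq2 called 6 of the genes lower in Laminectomy. By edgeR, the 8 genes called in SHAM and the 4 called in Laminectomy are not shown to differ between the groups.

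**Figure D1:**
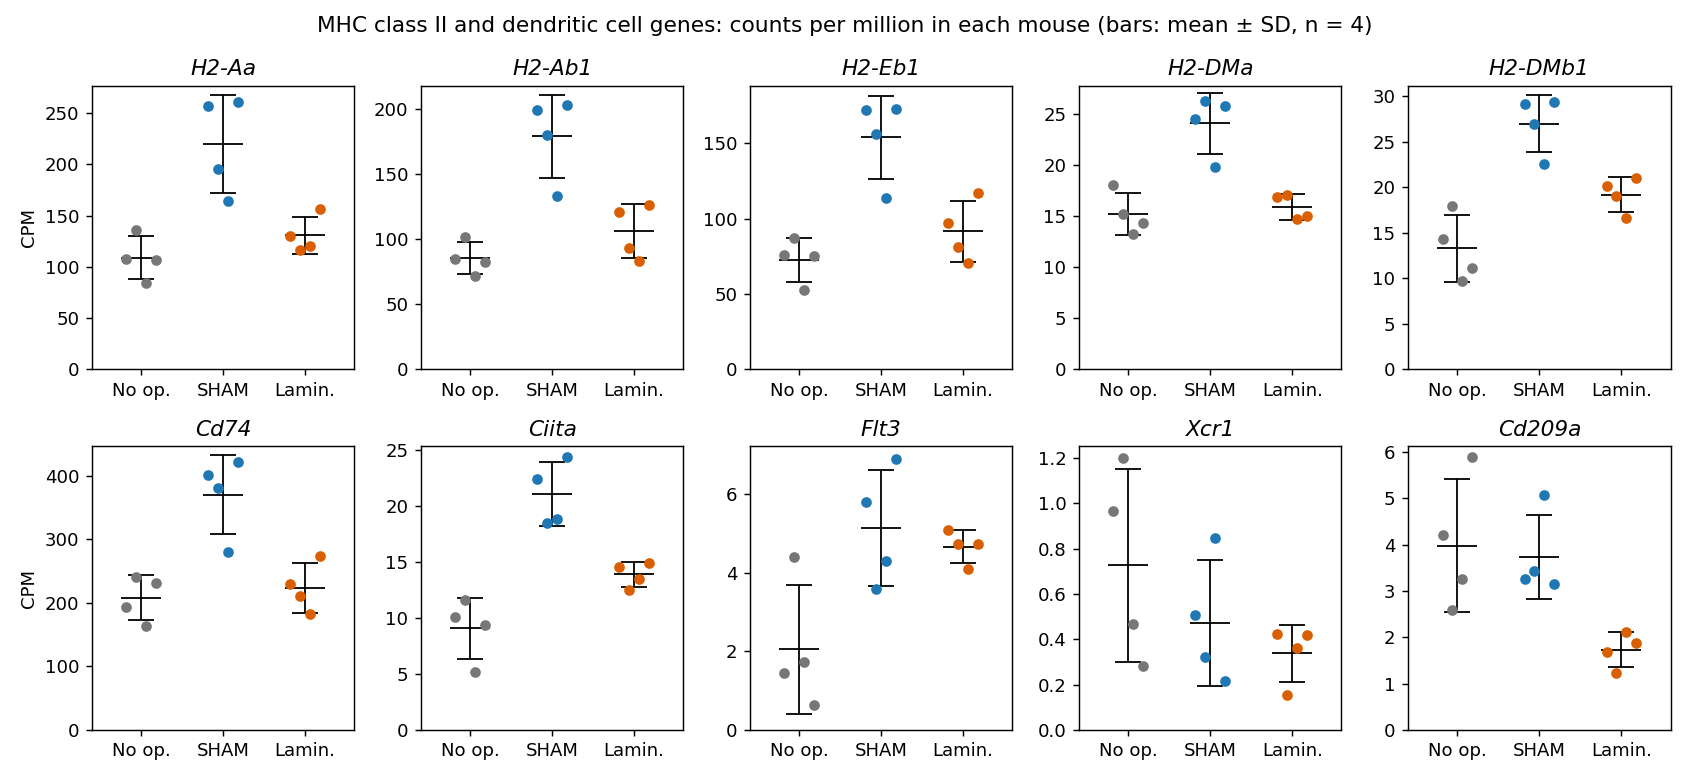
Level of each of the 10 genes in every mouse, in CPM on an axis that starts at 0, with points for single mice and bars for the mean and SD of No operation, SHAM and Laminectomy (n = 4 each). The 4 SHAM mice sit above all 4 No operation mice for H2-Aa (164 to 261 against 84.1 to 136 CPM), while Cd209a is lowest in the Laminectomy mice (1.23 to 2.12 CPM).

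H2-Aa and H2-Ab1 encode the alpha and beta chains of the I-A molecule. In No operation mice 1 to 4 the level of H2-Aa was 108, 136, 84.1 and 107 CPM, in SHAM mice 1 to 4 it was 257, 196, 164 and 261 CPM, and in Laminectomy mice 1 to 4 it was 130, 116, 120 and 156 CPM. Every SHAM mouse lay above every mouse of the other groups, and the Laminectomy mice overlapped the No operation mice. Group means were 109 ± 21.2, 220 ± 47.5 and 131 ± 18.0 CPM (SD, n = 4). The log2 fold change of H2-Aa in edgeR was 1.01 (SE 0.18, adjusted p = 5.69e-04) for SHAM against No operation, 0.26 (SE 0.18, adjusted p = 0.228) for Laminectomy against No operation, and -0.75 (SE 0.18, adjusted p = 0.114) for Laminectomy against SHAM.

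H2-Ab1 was at 84.8, 102, 71.9 and 82.8 CPM in the No operation mice, 199, 180, 133 and 203 CPM in the SHAM mice, and 121, 92.9, 83.4 and 126 CPM in the Laminectomy mice. SHAM 3 was the lowest of its group for both I-A genes and still stood above the highest Laminectomy mouse, and the Laminectomy mice again overlapped the unoperated ones. By edgeR the log2 fold change of H2-Ab1 was 1.07 (SE 0.17, adjusted p = 2.97e-04) in SHAM and 0.31 (SE 0.17, adjusted p = 0.145) in Laminectomy, each against No operation, and -0.76 (SE 0.17, adjusted p = 0.111) between the surgical groups.

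H2-Eb1 encodes the beta chain of the I-E molecule. Its levels were 75.8, 87.3, 52.6 and 75.1 CPM without operation, 172, 156, 114 and 173 CPM in SHAM, and 97.2, 81.0, 70.9 and 117 CPM in Laminectomy. All SHAM mice exceeded the unoperated mice, while Laminectomy 4 slightly exceeded SHAM 3, so the surgical groups overlapped for this gene. The log2 fold changes of H2-Eb1 in edgeR were 1.08 (SE 0.20, adjusted p = 6.64e-04), 0.33 (SE 0.20, adjusted p = 0.163) and -0.75 (SE 0.20, adjusted p = 0.135) for SHAM against No operation, Laminectomy against No operation and Laminectomy against SHAM.

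The alpha chain of I-E is encoded by H2-Ea, a gene that C57BL/6 mice cannot transcribe because its promoter is deleted and that BALB/c mice do transcribe. The deposited table lists it as H2-Ea-ps. It had 0 counts in 11 of the 12 mice and 4 counts in Laminectomy 1, and 0 counts allow a level of at most 0.154 to 0.210 CPM per mouse (3 counts, counting error only). This measurement goes against the strain in the study's methods. The reads were aligned to a C57BL/6 reference, class II genes vary strongly between strains, and the part of either in this value was not tested.

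Of the class II chain genes, 4 passed the filter, and edgeR called 4 higher and 0 lower in SHAM (median log2 fold change 1.07) and 1 higher and 0 lower in Laminectomy (median 0.32). This and every later count over a list stands beside 25.7% of all tested genes called higher and 25.1% lower in SHAM, and 24.2% higher and 24.4% lower in Laminectomy, and a list whose share is near these, such as 1 of 4 here, is no result about the list. The 1 called in Laminectomy was H2-Eb2, a second I-E beta chain gene at no more than 1.65 CPM in any mouse, with a log2 fold change of 2.89 (SE 0.71) in SHAM and 2.56 (SE 0.71) in Laminectomy. It was at 0.0689, 0.504, 0.0666 and 0 CPM in the No operation mice, below all operated mice.

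Cd74, the invariant chain gene, was at 194, 241, 164 and 231 CPM in the No operation mice, 401, 380, 280 and 421 CPM in the SHAM mice and 229, 210, 182 and 274 CPM in the Laminectomy mice. The SHAM mice were all above the mice of both other groups, and the Laminectomy mice spanned nearly the same levels as the unoperated ones. In edgeR the log2 fold change of Cd74 was 0.83 (SE 0.17, adjusted p = 0.00155) in SHAM, 0.11 (SE 0.17, adjusted p = 0.623) in Laminectomy, and -0.73 (SE 0.17, adjusted p = 0.113) between Laminectomy and SHAM.

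H2-DMa and H2-DMb1 encode the chains of H2-DM, which loads peptides onto class II. H2-DMa was at 18.1, 15.2, 13.3 and 14.3 CPM without operation, 24.5, 26.3, 19.8 and 25.8 CPM in SHAM and 16.9, 17.1, 14.7 and 15.0 CPM in Laminectomy. H2-DMb1 was at 14.3, 17.9, 9.66 and 11.1 CPM, 29.1, 26.9, 22.6 and 29.4 CPM, and 20.1, 19.0, 16.6 and 21.0 CPM in the same groups. For both genes the SHAM mice stood above all others, and only H2-DMb1 had a called difference in Laminectomy against No operation, where No operation 2 overlapped Laminectomy 3. The edgeR log2 fold changes of H2-DMa were 0.66 (SE 0.13, adjusted p = 8.21e-04) in SHAM, 0.07 (SE 0.13, adjusted p = 0.676) in Laminectomy and -0.60 (SE 0.13, adjusted p = 0.111) between the surgical groups. Those of H2-DMb1 in edgeR were 1.02 (SE 0.18, adjusted p = 4.45e-04), 0.53 (SE 0.18, adjusted p = 0.0224) and -0.49 (SE 0.17, adjusted p = 0.205). The Laminectomy call of H2-DMb1 was lost without No operation 3 (0.41), No operation 4 (0.46) or Laminectomy 4 (0.49). H2-DMa shares 360 exon bases, 10.4% of its exon length, with Brd2 on the other strand, and H2-DMb1 lies beside its paralog H2-DMb2, whose level was between 1.31 and 3.78 CPM with log2 fold changes of 0.01 in SHAM and -0.09 in Laminectomy.

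Among the 10 peptide-loading genes, all tested, edgeR called 7 higher in SHAM and 5 higher in Laminectomy, with 0 lower in either, and the medians were 1.25 and 0.93. Ctss, Lgmn and Ifi30 encode proteases and a reductase that prepare antigen, and were named for the largest changes of this list. Their log2 fold changes exceeded those of the class II genes among the 10 described. The chain gene H2-Eb2, at 2.89 in SHAM and 2.56 in Laminectomy, exceeded Lgmn and Ifi30 in both groups. Ctss, the cathepsin that cuts the invariant chain, went from a mean of 110 ± 76.8 CPM to 1045 ± 272 CPM in SHAM and 829 ± 308 CPM in Laminectomy (SD, n = 4), with edgeR log2 fold changes of 3.25 (SE 0.46, adjusted p = 1.14e-04) and 2.92 (SE 0.46, adjusted p = 2.55e-04). Lgmn, a lysosomal endopeptidase, rose by 2.79 (SE 0.39) and 2.12 (SE 0.38), and Ifi30, the lysosomal thiol reductase, rose by 2.58 (SE 0.27) and 2.51 (SE 0.27). In Laminectomy scar these genes were called together with Ctsl and H2-DMb1, whereas H2-DMa and Cd74 were called in SHAM only, a difference between groups that edgeR did not call. H2-Oa and H2-Ob, which encode the modulator of H2-DM, were not called by edgeR: H2-Oa reached at most 1.23 CPM and H2-Ob was highest in No operation 2, at 6.49 CPM, the mouse with the most B cell RNA. H2-Oa was called higher without No operation 2 in SHAM (2.55) and in Laminectomy (2.41), and without SHAM 2 in SHAM (1.67).

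Ciita encodes the transactivator on which transcription of the class II genes depends. It was at 10.1, 11.6, 5.20 and 9.39 CPM in the No operation mice, 22.4, 18.5, 18.9 and 24.4 CPM in the SHAM mice and 14.6, 12.5, 13.5 and 14.9 CPM in the Laminectomy mice. The 3 groups did not overlap, with unoperated tissue lowest, Laminectomy between and SHAM highest. The edgeR log2 fold changes of Ciita were 1.21 (SE 0.21, adjusted p = 3.90e-04) in SHAM, 0.61 (SE 0.21, adjusted p = 0.0230) in Laminectomy, and -0.60 (SE 0.20, adjusted p = 0.191) for Laminectomy against SHAM. The Laminectomy call of Ciita was lost without No operation 3 (0.42) and without Laminectomy 4 (0.58).

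Of the 14 tested genes of class II transcription and turnover, edgeR called 6 higher and 1 lower in SHAM (median 0.42) and 6 higher and 1 lower in Laminectomy (median 0.34). Rfx5, a subunit of the RFX complex that binds class II promoters, held a steady level in all groups, with means of 25.6 ± 2.05, 26.0 ± 3.22 and 27.1 ± 2.56 CPM (SD, n = 4). Its log2 fold changes were 0.02 (SE 0.11) and 0.08 (SE 0.11), neither called. March1, whose ligase takes class II off the cell surface, rose by 2.08 (SE 0.32) in SHAM and 1.20 (SE 0.31) in Laminectomy. The genes called lower were Nfyb in SHAM and Rfxap in Laminectomy, and 2 were called lower in SHAM without No operation 2 or SHAM 4.

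Interferon gamma itself was barely counted: Ifng had 0 to 3 counts per mouse and was not tested. Of the 9 tested genes of its axis, 4 were called higher and 0 lower in SHAM (median 0.48), and 4 higher and 0 lower in Laminectomy (median 0.12), with Irf1, Socs1 and Cxcl9 among them in each group. Irf1, a transcription factor that acts on the Ciita gene, rose by 0.89 (SE 0.18) in SHAM and 0.54 (SE 0.18) in Laminectomy, and the Laminectomy call was lost without No operation 3, Laminectomy 1 or Laminectomy 4 (0.40, 0.46 and 0.50). Socs1, a feedback inhibitor of cytokine signalling, rose by 1.63 (SE 0.34) and 1.80 (SE 0.34). Cxcl9, a chemokine that draws activated T cells, rose by 1.37 (SE 0.50) and 1.62 (SE 0.50), and its SHAM mice, at 1.85, 11.5, 8.31 and 9.77 CPM, overlapped the unoperated mice because SHAM 1 was low. The SHAM call of Cxcl9 was lost without No operation 1 (1.19), No operation 3 (1.27), No operation 4 (1.35), SHAM 2 (1.13), SHAM 3 (1.35) or SHAM 4 (1.25), and by limma-voom (1.19).

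Partners of class II at the contact with T cells were followed too. Of 11 tested costimulation and receptor genes, edgeR called 8 higher and 1 lower in SHAM (median 1.81) and 6 higher and 1 lower in Laminectomy (median 0.95), the lower gene being Cd28 in both. Cd4, the class II co-receptor, rose from 1.51 ± 1.21 CPM to 14.9 ± 2.36 CPM in SHAM and 13.2 ± 5.88 CPM in Laminectomy (SD, n = 4), log2 fold changes of 3.29 (SE 0.52) and 3.11 (SE 0.52). Cd80, a ligand of CD28, rose by 2.22 (SE 0.31) and 1.66 (SE 0.30), and Cd40, which receives T cell help, by 1.87 (SE 0.35) and 1.41 (SE 0.35). Of 5 tested T cell genes, 4 were called higher in SHAM (Cd4, Cd3g, Cd8a and Lck) and 3 in Laminectomy (Cd4, Cd3g and Cd8a), 0 lower, with medians of 1.71 and 1.38. Without No operation 4 the Laminectomy count of T cell genes was 1, and without No operation 2 it was 5. Cd3e, a defining T cell gene, had 1 to 13 counts per mouse and was removed by the filter, as were Cd3d and Cd8b1. Mean Cd3e was 0.148, 0.487 and 0.496 CPM in No operation, SHAM and Laminectomy, below Cd4 in each group. With no filter edgeR called Cd3e higher in SHAM (1.66) and in Laminectomy (1.68). The part of T cells in the Cd4 values was not tested. The T cell genes, led by Cd4 in the mean of each group, summed to between 1.33 and 26.9 CPM.

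Flt3 encodes the receptor for the growth factor that sustains dendritic cells. It was at 1.45, 4.41, 1.73 and 0.631 CPM in the No operation mice, 5.79, 3.58, 4.29 and 6.89 CPM in the SHAM mice and 5.08, 4.73, 4.09 and 4.74 CPM in the Laminectomy mice. No operation 2 stood with the operated mice, above SHAM 2, SHAM 3 and Laminectomy 3, and the other No operation mice lay below every operated mouse. The edgeR log2 fold change of Flt3 was 1.31 (SE 0.45, adjusted p = 0.0241) in SHAM, 1.17 (SE 0.45, adjusted p = 0.0403) in Laminectomy, and -0.14 (SE 0.43, adjusted p = 0.895) between the surgical groups. Its surgical means, 5.14 ± 1.48 and 4.66 ± 0.413 CPM (SD, n = 4), differed by less than the spread of the SHAM mice. Without No operation 2 the log2 fold changes were 2.01 and 1.87. The SHAM call was lost without No operation 1 (1.18), No operation 3 (1.23), SHAM 1 (1.24) or SHAM 4 (1.14), with only the groups compared in the model (1.32), and without SHAM 1 and SHAM 3 together (1.33). The Laminectomy call was lost with only the groups compared (1.18), without SHAM 1 and SHAM 3 together (1.18), with a replicate block (1.28), and without No operation 1 (1.04), No operation 3 (1.10), No operation 4 (0.87), SHAM 3 (1.17), Laminectomy 1 (1.13), Laminectomy 2 (1.17), Laminectomy 3 (1.23) or Laminectomy 4 (1.17).

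Xcr1, the chemokine receptor of cross-presenting type 1 dendritic cells, was close to the limit of detection. It had 3 to 19 counts per mouse, or 0.965, 1.20, 0.466 and 0.280 CPM in the No operation mice, 0.506, 0.321, 0.847 and 0.214 CPM in the SHAM mice and 0.424, 0.154, 0.363 and 0.417 CPM in the Laminectomy mice. The groups overlapped, the highest values being those of No operation 1 and No operation 2, and the filter on low counts kept it out of the test. With no filter, edgeR gave log2 fold changes of -0.62 in SHAM, -1.09 in Laminectomy and -0.47 between them, none called, as did DESeq2. Its ligand gene Xcl1 had 0 to 11 counts per mouse and was also removed by the filter, and with no filter edgeR called it higher in SHAM (2.77).

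Cd209a encodes a C-type lectin of monocyte-derived and type 2 dendritic cells. Its levels were 4.20, 2.58, 3.26 and 5.89 CPM without operation, 3.26, 3.42, 5.08 and 3.15 CPM in SHAM, and 1.69, 1.23, 2.12 and 1.88 CPM in Laminectomy, from 24 to 96 counts per mouse. Every Laminectomy mouse lay below every mouse of the other groups, and the SHAM and No operation mice overlapped. The edgeR log2 fold change of Cd209a was -0.09 (SE 0.28, adjusted p = 0.790) in SHAM, -1.20 (SE 0.29, adjusted p = 0.00434) in Laminectomy, and -1.10 (SE 0.29, adjusted p = 0.135) for Laminectomy against SHAM. It was lower in 4 of 4 Laminectomy mice than in any unoperated mouse, in contrast to the class II genes, which were not lower than unoperated tissue in either surgical group.

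**Figure D2:**
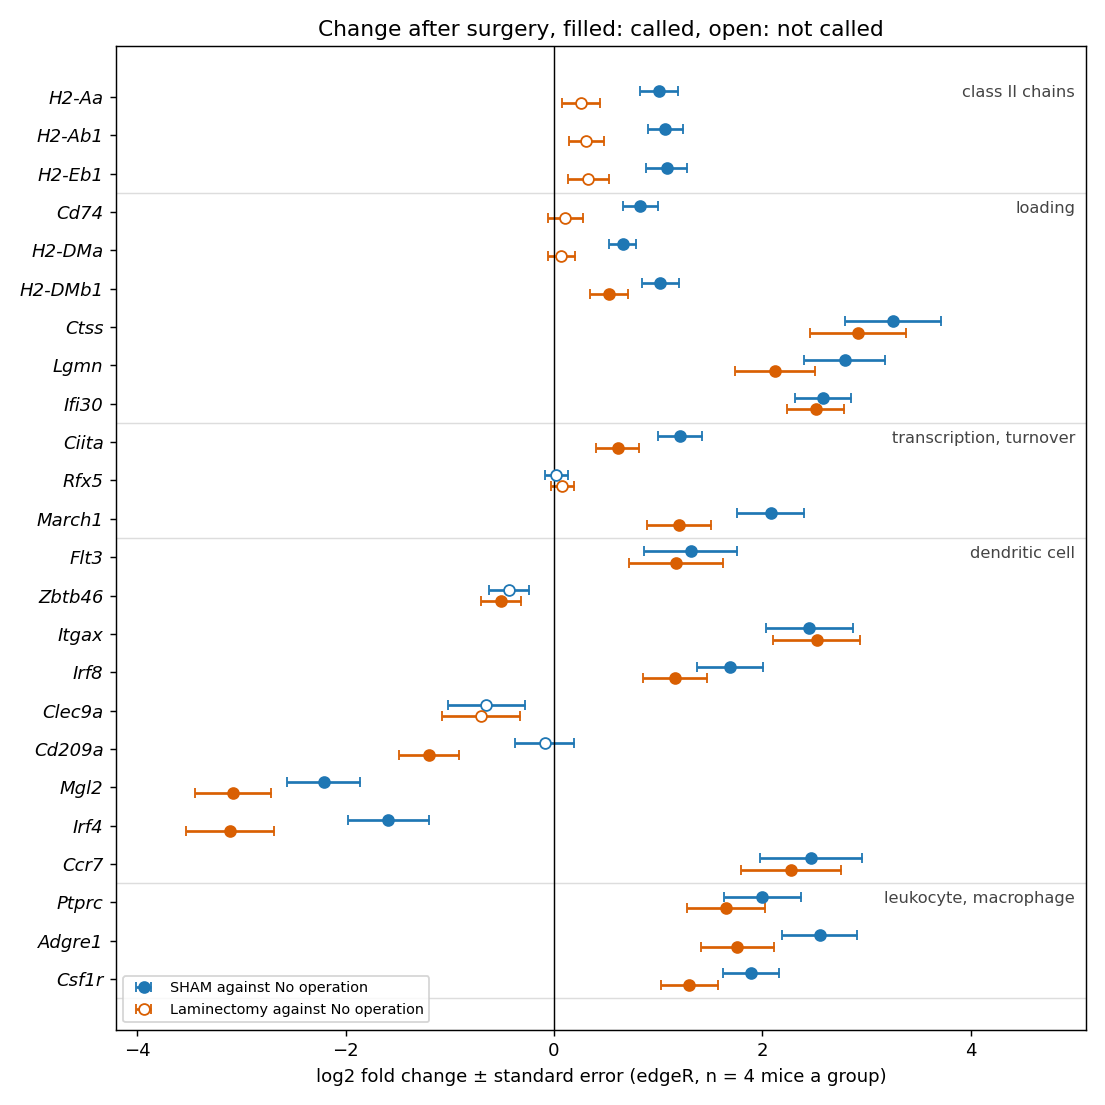
Log2 fold change in edgeR of the 9 tested genes and of other genes named in the text, for SHAM (blue) and Laminectomy (orange) against the same 4 No operation mice, with bars of 1 standard error and filled points for called genes. The SHAM points of the chain, H2-DM, Cd74 and Ciita genes lie between 0.66 and 1.21, the Laminectomy points of the same genes between 0.07 and 0.61, and Cd209a stands apart at -1.20 in Laminectomy against No operation.

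Other genes that define conventional dendritic cells were set beside Flt3. Of 11 shared genes, edgeR called 4 higher in SHAM (Flt3, Itgax, Irf8 and Kmo) and 1 lower (Cbfa2t3), with a median of 0.52. In Laminectomy it called 3 higher (Flt3, Itgax and Irf8) and 3 lower (Zbtb46, Dpp4 and Cbfa2t3), with a median of 0.37, and without No operation 2 it called 5 higher. The Laminectomy counts are near the 24.2% and 24.4% of all genes called higher and lower there. Itgax, the CD11c gene, which macrophages also express, was at 17.3, 12.2, 5.53 and 3.93 CPM in the No operation mice, 35.3, 60.2, 44.7 and 72.2 CPM in the SHAM mice and 77.1, 48.2, 55.5 and 42.2 CPM in the Laminectomy mice. The operated mice all lay above the unoperated ones, with edgeR log2 fold changes of 2.45 (SE 0.42, adjusted p = 4.27e-04) and 2.52 (SE 0.42, adjusted p = 4.14e-04). Irf8 rose by 1.69 (SE 0.32) and 1.16 (SE 0.31). Zbtb46, a transcription factor that sets conventional dendritic cells apart from macrophages and is also found in endothelium, had means of 20.0 ± 4.64, 14.8 ± 2.59 and 14.1 ± 2.67 CPM (SD, n = 4), with log2 fold changes of -0.43 (SE 0.19) in SHAM, not called except without SHAM 2 (-0.53), and -0.51 (SE 0.19) in Laminectomy, at the edge of the fold threshold and -0.18 with library size alone, and it was not called by DESeq2 or limma-voom (-0.49 in both). The Zbtb46 call was also lost without any 1 of No operation 2, No operation 4, SHAM 1, SHAM 4, Laminectomy 1, Laminectomy 2 or Laminectomy 3, with values from -0.33 to -0.53.

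Type 1 dendritic cell genes gave 4 higher in SHAM (Wdfy4, Ifi205, Tlr3 and Naaa) and 1 lower (Cadm1) of 10 tested, with a median of 0.20, and 1 higher (Wdfy4) and 0 lower in Laminectomy, with a median of -0.14. Clec9a and Batf3, which with Xcr1 define these cells, were not called with all 12 mice. Clec9a had means of 3.79 ± 0.916, 2.42 ± 0.367 and 2.34 ± 1.19 CPM (SD, n = 4), and Batf3 stayed at or below 1.71 CPM in every mouse. Wdfy4, which these cells need for cross-presentation and B cells also express, rose by 1.38 (SE 0.39) and 1.00 (SE 0.39), with its SHAM call lost without SHAM 1 and SHAM 3 together (1.15). The Laminectomy call of Wdfy4 was lost without any 1 of 8 mice, No operation 1, 3 and 4, SHAM 3 and 4, and Laminectomy 1, 2 and 3, with values from 0.73 to 1.00. Without Laminectomy 4, Clec9a (-1.02) and Batf3 (-1.18) were called lower in Laminectomy, and without Laminectomy 1, Clec9a was called lower in SHAM (-0.65). The number of type 1 genes called higher in Laminectomy ran from 0 to 2 without each mouse in turn.

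Type 2 dendritic cell genes were called in both directions. Of 11 tested, 3 were called higher (Sirpa, Clec10a and Notch2) and 3 lower (Mgl2, Irf4 and Klf4) in SHAM, with a median of -0.21, and 2 higher (Sirpa and Notch2) and 5 lower (Mgl2, Irf4, Klf4, Cd209a and Cd209d) in Laminectomy, with a median of -0.92. The SHAM counts are near the 25.7% and 25.1% of all genes called higher and lower there, and are no result about the list. Mgl2, a lectin gene of dermal type 2 dendritic cells and some macrophages, was at 28.2, 25.4, 43.9 and 38.3 CPM in the No operation mice, 8.99, 4.92, 10.6 and 4.80 CPM in the SHAM mice and 1.91, 4.32, 5.70 and 4.07 CPM in the Laminectomy mice. No operated mouse reached the lowest unoperated one. The edgeR log2 fold changes of Mgl2 were -2.21 (SE 0.35, adjusted p = 2.30e-04) and -3.08 (SE 0.36, adjusted p = 4.51e-05). Irf4, the transcription factor of these cells and also of B cells, plasma cells and fat tissue, was at 22.5, 20.0, 37.2 and 36.4 CPM, then 10.8, 7.17, 16.7 and 3.79 CPM in SHAM and 2.49, 3.86, 4.25 and 2.87 CPM in Laminectomy. Irf4 fell by 1.59 (SE 0.39) and by 3.11 on the log2 scale (SE 0.42), and between the surgical groups SHAM 4 overlapped the Laminectomy mice. Adipocyte genes, beside Irf4, were called lower in 4 of 6 in SHAM (median -2.43) and 6 of 6 in Laminectomy (median -4.19), with sums, led by Fabp4, of 1260, 2426, 1822 and 2163 CPM, 516, 251, 1411 and 331 CPM, and 72.7, 208, 365 and 406 CPM, and their part in the Irf4 values was not tested. The SHAM count of adipocyte genes was 1 without No operation 2, SHAM 1 or SHAM 4, and 2 without No operation 3, No operation 4, SHAM 2, Laminectomy 2 or Laminectomy 4, and it was 6 without SHAM 3. Sirpa, shared with macrophages, rose by 2.47 (SE 0.23) and 2.14 (SE 0.23).

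Genes of migratory dendritic cells gave 6 higher and 0 lower of 11 tested in SHAM (median 1.46) and 6 higher and 1 lower, Tnfrsf4, in Laminectomy (median 0.92). The Tnfrsf4 call was lost without No operation 2, 3 or 4 or Laminectomy 2 or 3, and without No operation 1 the number called lower in SHAM was 2. Ccr7, the receptor that guides dendritic cells and naive T cells to lymph nodes, was at 0.414, 1.39, 0.599 and 0.280 CPM in the No operation mice, 5.96, 3.96, 2.70 and 2.51 CPM in the SHAM mice and 4.55, 3.24, 1.97 and 3.39 CPM in the Laminectomy mice. The operated mice did not overlap the unoperated ones and overlapped each other. In edgeR its log2 fold changes were 2.47 (SE 0.49, adjusted p = 0.00102) and 2.27 (SE 0.48, adjusted p = 0.00188). Fscn1, an actin-bundling protein gene of mature dendritic cells that fibroblasts and endothelium also express, rose by 2.49 (SE 0.23) and 2.41 (SE 0.23).

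Plasmacytoid dendritic cell genes gave 4 higher (Bst2, Irf7, Tlr7 and Tlr9) and 1 lower of 11 tested in SHAM, with a median of 0.73. In Laminectomy they gave 6 higher (the same 4 with Pacsin1 and Runx2) and 1 lower, with a median of 1.19. Mean Runx2 was 16.6, 31.7 and 61.1 CPM and mean Pacsin1 1.31, 2.00 and 6.99 CPM in No operation, SHAM and Laminectomy. The part of other cells in these calls was not tested. The lower gene was Cox6a2 in both groups, with log2 fold changes of -4.21 and -3.56, a gene that skeletal muscle expresses strongly and that was the most abundant of the list in unoperated tissue, at a mean of 366 CPM, but not after surgery, at 19.8 and 31.0 CPM. Siglech, the defining gene, had means of 2.50 ± 0.840, 2.67 ± 0.583 and 2.08 ± 0.731 CPM (SD, n = 4) and was not called in either group. Tlr9, an endosomal DNA sensor also of B cells and macrophages, rose by 2.43 (SE 0.36) and 2.20 (SE 0.36). Langerhans cell and epidermis genes had 2 tested, of which 1, Krt5, was called higher in SHAM and 0 in Laminectomy, with medians of 3.74 and -0.59. The SHAM count was again 1 without SHAM 1 or SHAM 2, and it was 3 without SHAM 4 and 2 without any other mouse, as Krt10 was then called or Krt14 passed the filter and was called. In Laminectomy, 1 gene of the list was called lower without SHAM 1. Cd207, the Langerhans cell gene, which some type 1 dendritic cells also express, had 0 to 17 counts per mouse and was removed by the filter, and with no filter edgeR called it higher in SHAM (3.16) and in Laminectomy (3.85). Krt5 was at 27.4 and 31.9 CPM in SHAM 1 and SHAM 3 and at most 2.03 CPM in the other mice, with its call lost when both were left out.

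Growth factor and chemokine genes for dendritic cells were called 3 higher (Csf1, Csf2ra and Csf2rb) and 3 lower (Flt3l, Il34 and Ccl21a) of 7 tested in SHAM, with a median of 0.74, and 2 higher (Csf2ra and Csf2rb) and 3 lower (again Flt3l, Il34 and Ccl21a) in Laminectomy, with a median of -0.36. Flt3l, the ligand of FLT3, was at 7.31, 8.69, 9.46 and 11.0 CPM in the No operation mice, 6.13, 7.76, 4.55 and 5.39 CPM in the SHAM mice and 5.14, 4.16, 4.46 and 5.58 CPM in the Laminectomy mice. The ligand was thus lower in the groups in which its receptor was higher, with SHAM 2 overlapping No operation 1. The edgeR log2 fold changes of Flt3l were -0.61 (SE 0.19, adjusted p = 0.0169) and -0.91 (SE 0.20, adjusted p = 0.00196), and the SHAM value was -0.35 and not called with library size alone, and -0.48 and not called without SHAM 1 and SHAM 3. Csf2ra and Csf2rb, the receptor chains for GM-CSF, rose by 1.79 (SE 0.28) and 2.17 (SE 0.34) in SHAM and by 1.38 (SE 0.28) and 1.34 (SE 0.33) in Laminectomy. Csf2, the gene of GM-CSF itself, had 0 to 2 counts per mouse and was not tested.

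Class II is shared with macrophages and B cells, so their genes were set beside it. Of 13 tissue macrophage genes, edgeR called 10 higher and 2 lower in SHAM (median 1.91) and 8 higher and 2 lower in Laminectomy (median 1.13), the lower genes being Timd4 and Lyve1 in both, of which 1 was called in SHAM without No operation 1, 3 or 4 or SHAM 2 or 4. Their sum, led by Csf1r in the mean of each group, was 1716, 754, 997 and 826 CPM in the No operation mice, 5914, 3318, 3327 and 3048 CPM in the SHAM mice and 2483, 2003, 2168 and 2000 CPM in the Laminectomy mice. The sums stood in the order of the class II means, with SHAM highest, Laminectomy between and unoperated tissue lowest without overlap. Their part in the class II differences was not tested. Monocyte genes gave 6 of 8 higher in SHAM (median 1.72) and 4 of 8 in Laminectomy (Ccr2, Vcan, Fcgr4 and Cx3cr1, median 1.21), with 0 lower. Their sum, led by F13a1 in the mean of each group, ran from 244 to 702, from 928 to 2220 and from 750 to 1265 CPM.

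B cell genes were also followed. Of 9 tested, 1 was called higher (Cd22) and 3 lower (Cd79a, Pax5 and Fcer2a) in SHAM, with a median of -1.40, and 1 higher (Cd22) and 1 lower (Fcer2a) in Laminectomy, with a median of -0.84. The sum of the B cell genes, led by Cd22, was from 19.6 to 21.3 CPM in the SHAM mice and from 16.4 to 27.2 CPM in the Laminectomy mice. Cd79a, a signalling chain gene of the B cell receptor, was at 0.138, 11.7, 3.80 and 0.210 CPM in the No operation mice, from 0.281 to 0.801 CPM in the SHAM mice and from 0.886 to 2.65 CPM in the Laminectomy mice. The SHAM mice lay between No operation 1 and 4, which were lower, and No operation 2 and 3, which were higher. Cd22, by contrast, was at a mean of 2.17 ± 2.06 CPM without operation, 12.3 ± 0.781 CPM in SHAM and 9.37 ± 0.525 CPM in Laminectomy (SD, n = 4). The number called lower in SHAM was 1 without any 1 of No operation 2, No operation 3, SHAM 1, SHAM 2, SHAM 4 or the Laminectomy mice, and 5 without No operation 1. The Fcer2a call in Laminectomy was lost without any 1 mouse other than No operation 1 or No operation 3. The call of Cd79a in SHAM was lost without any 1 of 10 mice, that is every mouse but No operation 1 and No operation 4, with values from -1.10 without No operation 2 to -2.73 without SHAM 4, and limma-voom (-0.97) did not call it.

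Genes that mark all leukocytes gave 6 of 6 higher in SHAM (median 2.03) and 5 of 6 in Laminectomy (Ptprc, Laptm5, Cd52, Cd53 and Cytip, median 1.71), and their sum, led by Laptm5, was 316, 481, 252 and 114 CPM, 1484, 1137, 917 and 1238 CPM, and 1091, 794, 849 and 790 CPM in the 3 groups. Ptprc, which encodes CD45, rose by 2.00 (SE 0.37, edgeR adjusted p = 7.01e-04) and 1.65 (SE 0.37, edgeR adjusted p = 0.00245), log2 values above those of every class II member. The level of H2-Ab1 divided by that of Ptprc was 1.27, 0.902, 1.24 and 3.69 in the No operation mice, 0.607, 0.783, 0.650 and 0.735 in the SHAM mice and 0.507, 0.529, 0.404 and 0.641 in the Laminectomy mice. Per unit of Ptprc, H2-Ab1 was therefore highest in unoperated tissue, above every operated mouse, and the operated groups overlapped. Mean ratios were 2.26, 0.846 and 0.646 for H2-Aa and 4.54, 1.44 and 1.11 for Cd74 in the same order, and without No operation 4 the unoperated means were 1.42 for H2-Aa and 2.62 for Cd74. The ratio of Flt3 had means of 0.0297, 0.0198 and 0.0231 and that of Itgax 0.159, 0.212 and 0.271. These ratios are given as a description without a test, and No operation 4, with the least Ptprc at 22.4 CPM, had the highest ratio for each class II member.

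The tissue lists complete the setting. Skeletal muscle genes were called lower in 10 of 10 in both surgical groups (medians -4.12 and -3.61). Fibroblast and scar genes were called higher in 8 of 10 and lower in 1, Dcn, in both groups (medians 1.29 and 1.53), and Dcn was not called in SHAM without No operation 3, SHAM 2, SHAM 3 or SHAM 4. Endothelial genes were called lower in 3 of 6 in both, namely Kdr, Tek and Vwf, with 0 higher and medians of -0.41 and -0.38. With library size alone Kdr was not called in either group and Vwf not in SHAM, where Vwf was also not called without No operation 4 (-0.65), SHAM 2 (-0.58) or SHAM 4 (-0.63). The endothelial sum, led by Pecam1, was between 692 and 869 CPM without operation, 511 and 703 CPM in SHAM and 466 and 689 CPM in Laminectomy. In Laminectomy against SHAM, 0 genes of any list were called by edgeR, which called 0 genes at all there.

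Compared per kilobase of exon, Cd74 was the most abundant of the 10 genes in every group, with means of 124 ± 21.0, 221 ± 37.2 and 133 ± 23.1 CPM per kilobase in No operation, SHAM and Laminectomy (SD, n = 4). The chain genes followed, H2-Eb1 at 37.4 ± 7.48, 79.1 ± 14.3 and 47.1 ± 10.5, H2-Ab1 at 33.3 ± 4.85, 69.7 ± 12.4 and 41.1 ± 8.06, and H2-Aa at 28.6 ± 5.58, 57.8 ± 12.5 and 34.4 ± 4.74 CPM per kilobase. The means of neighbours in this order of chain genes differed by less than the larger SD of the pair. In Laminectomy, H2-Ab1 and H2-Aa differed by more than the SD of H2-Aa, 4.74. H2-DMb1 came next, at 7.89, 16.1 and 11.4, then H2-DMa at 4.41, 6.99 and 4.62 CPM per kilobase. Cd209a, at 2.52, 2.36 and 1.09, stood above Ciita, at 0.952, 2.21 and 1.45, in unoperated tissue and below it in Laminectomy, and within its spread of it in SHAM. Flt3, at 0.333, 0.832 and 0.755, and Xcr1, at 0.163, 0.106 and 0.0762 CPM per kilobase, were lowest. The order of the chain genes rests on the exon lengths used, 1944 bases for H2-Eb1, 2568 for H2-Ab1 and 3798 for H2-Aa. In CPM, without scaling to length, their order was the reverse in each group.

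Across the 12 mice the class II genes moved closely together, as Pearson correlations of log2 CPM show as a description: 0.987 between H2-Ab1 and H2-Eb1, 0.977 between H2-Aa and H2-Eb1, 0.975 between H2-Aa and H2-Ab1, and 0.969 between H2-Ab1 and Cd74. H2-DMb1 had 0.959 with Ciita, and Ciita had 0.922 with H2-Aa. Over all pairs of these 7 class II genes the lowest value was 0.805, between H2-DMa and Ciita. Flt3 had from 0.474 with H2-DMa to 0.816 with H2-DMb1, and Cd209a had 0.0682 with H2-Aa and -0.586 with Flt3. These 12 points fall into 3 groups that differ in tissue composition, so a correlation holds that difference too. The genes most like the mean of H2-Aa, H2-Ab1 and H2-Eb1 over the 12 mice were Etv3 (0.955), Sh2b2 (0.953), Psen2 (0.945), Jak3 (0.935), Tet3 (0.932), Soat2 (0.930), Trim21 (0.930), Rnd1 (0.928), Dram1 (0.924) and Plgrkt (0.924). Etv3, for example, had means of 40.9 ± 5.40, 69.9 ± 6.59 and 53.0 ± 7.93 CPM (SD, n = 4). Those most like Flt3 were Tmem156 (0.980), Cyp4f18 (0.976), Rassf5 (0.975), Napsa (0.974) and Stx11 (0.970).

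The class II genes of this set that RefSeq places on mouse chromosome 17 (GRCm38.p6) lie in a cluster, in the order H2-DMa (gene 14998, 34119693 to 34139101), H2-DMb1 (gene 14999, 34153191 to 34160229), H2-Ab1 (gene 14961, 34263227 to 34269418), H2-Aa (gene 14960, 34282744 to 34287823) and H2-Eb1 (gene 14969, 34305867 to 34316674). Ciita (gene 12265) is at 10480014 to 10531064 on chromosome 16, Flt3 (gene 14255) at 147330741 to 147400489 on chromosome 5, Xcr1 (gene 23832) at 123852315 to 123862029 on chromosome 9, and Cd209a (gene 170786) at 3743395 to 3748984 on chromosome 8. Cd74 (gene 16149) is at 60803849 to 60812652 on chromosome 18. Ciita and Cd74, called higher in SHAM like the genes of the cluster, are thus not part of it.

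Class II promoters are known to carry an X box, bound by the RFX complex, and a Y box, an inverted CCAAT sequence bound by NF-Y, on which CIITA assembles. RefSeq promoters, 250 bases before to 50 bases after the start, were held for 7 of the 10 genes, and H2-Ab1, Ciita and Cd74 had no entry. The letters TGATTGG were searched on both strands and occur on either strand in 7.82% of all 32851 promoters (2568). On the gene's strand they occur in 4.01% (1318). The letters CTNGNAAC, chosen after the sequences were seen, occur on either strand in 13.2% (4321) and on the gene's strand in 6.63% (2177). Both stood on the gene's strand in H2-Aa (starting 50 and 84 bases before the start), in H2-Eb1 (61 and 94) and in H2-DMb1 (63 and 97), with 26, 25 and 26 bases between them. Among class II genes outside the set, both were found in H2-Ob (59 and 90) and in H2-Eb2 (102 and 12, in the other order), and TGATTGG without the other in H2-DMb2 (92) and H2-Oa (45). Neither run of letters was in the windows of H2-DMa, Xcr1 or Cd209a, and Flt3 had CTNGNAAC on the other strand, 221 bases before the start. A match describes letters and not binding, and the absence of a match says only that these letters are not in the window.

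H2-Aa, H2-Eb1, H2-DMb1 and H2-Eb2, with both runs of letters, were called higher in SHAM. H2-Ob, also with both, was not called (log2 fold change -0.83), and H2-DMa, with neither, was called higher (0.66). The stretches from 120 to 21 bases before the start are printed for the 3 genes of the set that hold both runs. They are RefSeq sequences of GRCm38.p6, 5′ to 3′ on the gene's strand: H2-Aa at chr17:34287844-34287943 on the minus strand, H2-Eb1 at chr17:34305747-34305846 on the plus strand and H2-DMb1 at chr17:34153071-34153170 on the plus strand. Capitals mark CTNGNAAC and then TGATTGG.
H2-Aa: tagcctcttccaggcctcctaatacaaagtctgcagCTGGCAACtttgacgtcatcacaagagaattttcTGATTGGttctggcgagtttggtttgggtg
H2-Eb1: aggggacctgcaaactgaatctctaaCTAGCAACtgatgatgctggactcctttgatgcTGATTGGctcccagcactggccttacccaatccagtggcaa
H2-DMb1: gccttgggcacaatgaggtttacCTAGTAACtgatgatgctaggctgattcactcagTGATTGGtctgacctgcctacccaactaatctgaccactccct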

How the data were processed

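RNA from soft and scar tissue of 12 mice, 4 in each of 3 groups, was sequenced from polyadenylated, stranded libraries. The submitters' processing notes name STAR 2.6.1b for alignment to GRCm38/mm10, featureCounts 2.0.1 for counting and DESeq2 1.30.1 for their own tests. The deposited values are an estimated count per gene: 10.22% of the values are not whole numbers, in 2933 genes including Ciita, H2-DMa and H2-DMb1, and the step that made them so is not stated by the authors. They were rounded to whole counts (largest change 0.5). Depth per mouse ran from 16803002 to 18077873 counts, and floors cover counting error only.

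All 18996 genes entered 1 edgeR 4.0.16 quasi-likelihood model (R 4.3.3) with a term for group, after its filter by group, which left 14765 genes, and with TMM factors from 0.849 to 1.13. The standard error is the log2 fold change over the square root of F. CPM use TMM library sizes, and log2 CPM a prior count of 2. P-values were adjusted by Benjamini and Hochberg over all genes tested. Alternatives were DESeq2 1.42.0, limma-voom (limma 3.58.1), library size alone, upper quartile factors, no filter, a filter of 10 counts in every mouse, only the groups compared, a replicate block, a log2 fold threshold of 1, and leaving out each mouse in turn. The pairs SHAM 1 with SHAM 3 and No operation 1 with No operation 2 were left out together as alternatives chosen after seeing the data. Exon lengths are unions of GENCODE exons, and promoters and positions are RefSeq's for GRCm38.p6.

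The 10 genes and the 21 lists around them were chosen with earlier results of these data known, so no list was tested as a set. Besides the 10, the named genes were a fixed group of class II, dendritic cell and other cell type genes, up to 3 genes of each list with the largest called log2 fold change and a mean of at least 5 CPM in the higher group, and the genes most correlated with class II (10) and with Flt3 (5). Other list genes are named for some of the lists, and these names were chosen after their values were seen.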

Additional observations from a re-analysis of the deposited data

Results flagged for a closer look

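In 22 of the 280 groups of 4 mice looked at, 1 mouse stood far from the other 3 relative to the spread of the group, and chance alone does this in about 1 in 20 groups. Of the 10 genes described, only Cd209a had such a mouse, with SHAM 3 at 5.08 CPM beside 3.15 to 3.42 in its group, and the 9 others had none. SHAM 1 stood apart for Csf1r (1050 CPM beside 514 to 579), March1 (85.4 CPM beside 36.1 to 40.5) and Cd79a (0.281 CPM beside 0.741 to 0.801). SHAM 2 did so for Cacnb3 (56.9 CPM beside 33.3 to 36.5). SHAM 3 was low for Ifi30 (167 CPM beside 221 to 225), Sirpa (494 CPM beside 649 to 674) and Cd3e (0.318 CPM beside 0.534 to 0.562), and high for Pck1 (116 CPM beside 2.78 to 16.5) and Tek (41.7 CPM beside 34.9 to 36.0). SHAM 4 was low for Col1a1 (15574 CPM beside 20632 to 21166) and high for Myh2 (257 CPM beside 85.5 to 103).

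Laminectomy 1 was high for Ctss (1291 CPM beside 660 to 685), Csf2ra (101 CPM beside 55.4 to 57.4) and Cd68 (391 CPM beside 185 to 212), and low for the muscle genes Pvalb (19.9 CPM beside 205 to 237) and Cox6a2 (9.32 CPM beside 36.1 to 41.1). Laminectomy 3 was high for Krt5 (0.622 CPM beside 0 to 0.106) and Laminectomy 4 for Dram1 (111 CPM beside 55.3 to 64.2). No operation 1 was high for Lgmn (298 CPM beside 83.1 to 107), Col3a1 (9680 CPM beside 1057 to 2180) and Postn (2053 CPM beside 99.6 to 330). The part of these mice in the class II results was not tested beyond leaving each of them out.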

How the results depend on the processing

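The count of the 10 genes called in SHAM against No operation was 8, and 7 to 8 without each mouse in turn, 8 with the replicate block, and 6 at a log2 threshold of 1. The count called in Laminectomy against No operation was 4, and 1 to 4 without each mouse in turn and 3 with the replicate block, in which Flt3 was lost. It was 2 at a log2 threshold of 1, since that threshold removes smaller changes by construction, and 7 with library size alone, which raises the median of all genes by 0.32. Genes called in all were 7502 in SHAM (6962 to 7636 leaving out a mouse, 4589 at a log2 threshold of 1) and 7182 in Laminectomy (6530 to 7414, and 4323). In Laminectomy against SHAM both counts were 0 in edgeR and 0 to 0 leaving out a mouse, while DESeq2 called 6 of the 10 genes and 696 in all, and the cause was not tested. Library size alone and upper quartile factors moved the median of all genes by 0.26 and 0.08 in SHAM, 0.32 and 0.13 in Laminectomy, and 0.07 and 0.05 between them.

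Among all called genes of the lists or named by rule, 0 of 2919 alternative values in SHAM (134 genes) and 0 of 2418 in Laminectomy (111 genes) had the opposite sign. Of the members' alternative values, 191 kept their side of the threshold and 6 lost it in SHAM (all Flt3), 178 kept it, 16 lost it and 3 gained it in Laminectomy, and 191 kept it and 6 gained it between the surgical groups. For the other named genes 1723 kept it, 69 lost it and 14 gained it in SHAM, and 1716, 42 and 47 in Laminectomy. Counts per mouse were low for Ifng (0 to 3), Csf2 (0 to 2), Cd207 (0 to 17) and Xcr1 (3 to 19).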
